A study of Saccharomyces cerevisiae with 7 samples.

Results

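The genes described here encode proteins that end noncoding transcription by RNA polymerase II (RNAPII) and prepare the transcripts for decay. They were chosen by name as *NRD1*, *NAB3*, *SEN1*, *PCF11*, *NPL3*, *PAP2*, *TRF5*, *AIR2* and *MTR4*, which is 9 of the 5781 open reading frames (ORFs) with a value in all tracks. RNAPII was mapped by chromatin immunoprecipitation and sequencing (ChIP-seq) in budding yeast of the W303 background, with an antibody against the RNAPII C-terminal domain (CTD). The genotypes were *rtt109Δ*, without the histone H3 acetyltransferase Rtt109, *rrp6Δ*, without the 3′ to 5′ nuclease Rrp6 of the nuclear exosome, and the isogenic wild-type (WT). All were asynchronous log phase cultures in rich glucose medium, and no strain had a further treatment. The 7 samples were 2 immunoprecipitated (IP) libraries of each genotype and 1 shared input. The deposited values were 1 combined track of IP over input per genotype, so each difference below was between single tracks, with no replicate error and no test.

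Nrd1 and Nab3 bind short motifs in nascent RNA, Nrd1 also contacts the CTD, and the helicase Sen1 releases the polymerase. This pathway ends transcription of small nucleolar RNAs and of cryptic unstable transcripts. The RNAs then pass to TRAMP, in which a poly(A) polymerase (Trf4, encoded by *PAP2*, or Trf5), a zinc knuckle RNA-binding protein (Air1 or Air2) and the helicase Mtr4 add a short tail and hand the RNA to the exosome, of which Rrp6 is part. Pcf11 belongs to the cleavage factor for mRNA 3′ ends and also acts in noncoding termination. Npl3 is an abundant RNA-binding protein that travels with elongating RNAPII and competes with termination. *NRD1* limits its own expression through early termination of its own transcript, so its 5′ end was measured apart. *AIR1* lies on chromosome IX, which was not analysed here.

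A track had 228888 windows, each 100 bp long and 50 bp from the next, and its median window was 1. The spread of the windows was narrower in *rtt109Δ*, with an SD of 0.661, against 0.904 in *rrp6Δ* and 0.897 in WT. Over ORFs the median ratio was 0.942 in *rtt109Δ*, 0.982 in *rrp6Δ* and 0.974 in WT. The deleted genes fitted the labels. *RTT109* had a ratio of 0.0178 in *rtt109Δ*, against 1.36 in WT, and *RRP6* had 0.118 in *rrp6Δ*, against 1.01 in WT. The read depth behind the ratios is unknown.

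RNAPII over the 9 ORFs was measured as the mean ratio of the windows centred in each ORF, a value per length of gene. The value is relative to input, and more or less RNAPII below means a higher or lower ratio. Whether the order of this ratio among genes follows the amount of RNAPII was not tested. In the plot of levels most of the genes lay near or below the median ORF. The median over the 9 was 0.943 in *rtt109Δ*, 0.859 in *rrp6Δ* and 0.881 in WT. In WT the order ran, high to low, as *AIR2*, *SEN1*, *PCF11*, *PAP2*, *MTR4*, *TRF5*, *NRD1*, *NAB3* and *NPL3*. The step from *SEN1* (1.20) to *PCF11* (1.20) and those between *MTR4* (0.881), *TRF5* (0.825) and *NRD1* (0.817) were small against the interquartile ranges of their windows, such as 0.715 to 0.980 for *MTR4* and 0.678 to 0.915 for *NRD1*.

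**Figure D1:**
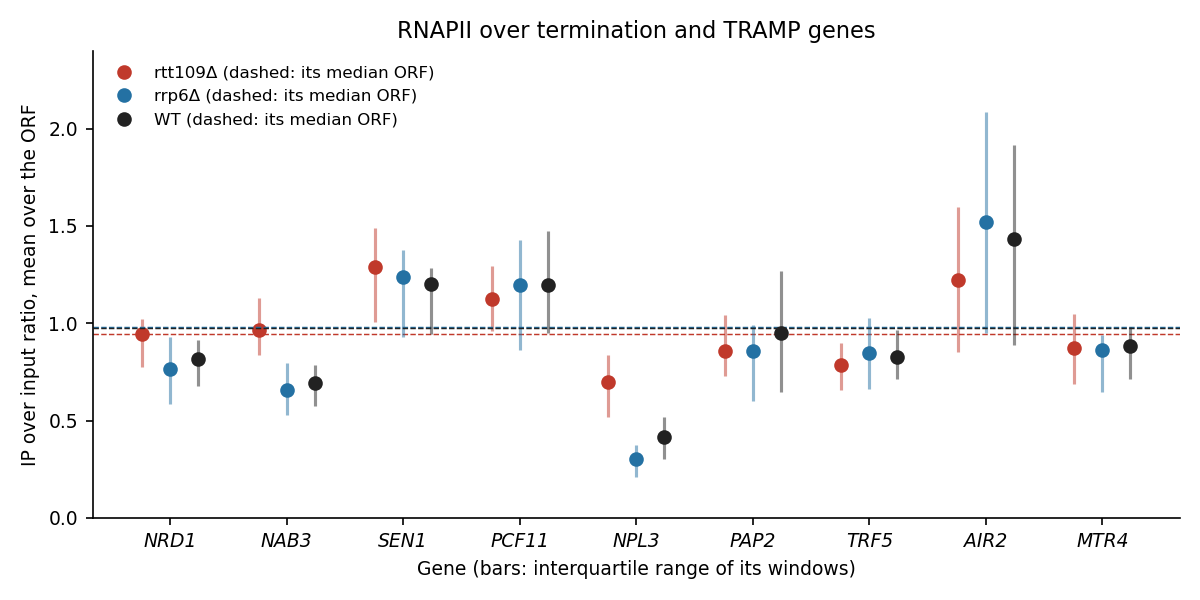
RNAPII ratio of IP over input (vertical axis, no unit) over each of the 9 ORFs in *rtt109Δ* (red), *rrp6Δ* (blue) and WT (black), with 1 combined track per genotype. Points are means over the windows centred in the ORF, bars are the interquartile range of those windows and carry no replicate error, and dashed lines mark the median ORF of each track. *NPL3* is the lowest of the 9 in each genotype, at 0.697 in *rtt109Δ*, 0.305 in *rrp6Δ* and 0.416 in WT.

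Positions below are those of each ORF in the R64 (sacCer3) genome. Among the termination factors, *SEN1* (YLR430W, XII:993434-1000129, plus strand) had 1.29 in *rtt109Δ*, 1.24 in *rrp6Δ* and 1.20 in WT over 134 windows. *NRD1* (YNL251C, XIV:172588-174315, minus strand) had 0.943, 0.763 and 0.817 in *rtt109Δ*, *rrp6Δ* and WT over 35 windows. *NAB3* (YPL190C, XVI:185317-187725, minus strand) had 0.964 in *rtt109Δ*, 0.657 in *rrp6Δ* and 0.695 in WT over 48 windows. The subunits of the same termination complex were thus unlike in WT, where *SEN1* ranked at percentile 77.8 of all ORFs, *NRD1* at 27.4 and *NAB3* at 14.1. *PCF11* (YDR228C, IV:921926-923806, minus strand) had 1.13 in *rtt109Δ*, 1.20 in *rrp6Δ* and 1.20 in WT over 38 windows. *NPL3* (YDR432W, IV:1328783-1330027, plus strand) had 0.697 in *rtt109Δ*, 0.305 in *rrp6Δ* and 0.416 in WT over 25 windows. Counted from the lowest of the 5781 ORFs, it ranked 474 in *rtt109Δ*, 10 in *rrp6Δ* and 15 in WT, where its highest window reached 0.650.

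The TRAMP genes also spanned the range. *AIR2* (YDL175C, IV:144484-145518, minus strand) was the highest of the 9 in WT, with 1.22 in *rtt109Δ*, 1.52 in *rrp6Δ* and 1.43 in WT over 21 windows, the WT value at percentile 92.0. *PAP2* (YOL115W, XV:101475-103229, plus strand) had 0.856, 0.859 and 0.948 in *rtt109Δ*, *rrp6Δ* and WT. Its alternative in TRAMP, *TRF5* (YNL299W, XIV:66517-68445, plus strand), had 0.783 in *rtt109Δ*, 0.845 in *rrp6Δ* and 0.825 in WT. *MTR4* (YJL050W, X:342522-345743, plus strand), the helicase, had 0.873, 0.864 and 0.881 over 64 windows in *rtt109Δ*, *rrp6Δ* and WT, the smallest spread of the 9 genes.

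Over whole ORFs, *NPL3* and *NAB3* had more RNAPII in *rtt109Δ* than in WT by more than 1.3-fold, the limit the study used for RNAPII, and none of the 9 was lower by that much. This count of 2 of 9 stands beside 8.75% of all ORFs past the limit on the higher side and 9.57% on the lower side, shares that were 13.8% and 4.05% with the tracks scaled to the same mean window, where the members' count stayed at 2. On the log2 scale, *rtt109Δ* over WT was 0.75 for *NPL3* and 0.47 for *NAB3*. Each of the 25 windows of *NPL3* was higher in *rtt109Δ* than in WT, and so were 46 of the 48 windows of *NAB3*, although neighbouring windows overlap and are not independent. *NRD1* had a log2 ratio of 0.21, below the limit, with 29 of its 35 windows higher in *rtt109Δ*. The TRAMP genes had log2 ratios of -0.23 (*AIR2*), -0.15 (*PAP2*), -0.07 (*TRF5*) and -0.01 (*MTR4*), and *SEN1* and *PCF11* had 0.10 and -0.09. The values of *TRF5*, *MTR4* and *PCF11* turned positive once tracks were scaled to the same mean window. The median over the 9 was -0.01, beside -0.05 over all ORFs.

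Ratios of *rtt109Δ* to WT moved with the WT level across the genome, as the plot of change against level shows. In the lowest WT decile of ORFs, which holds *NPL3*, the median log2 ratio was 0.30, and *NPL3* stood at percentile 93.3 of that decile. The decile with *NAB3* had a median of 0.17, and *NAB3* stood at percentile 87.2 of it. *SEN1* was higher than most ORFs of its own WT level, with 0.10 against a median of -0.18 (percentile 92.4). It lies on chromosome XII, whose 520 ORFs had a median of 0.06, and the part of this in its value was not tested. *AIR2*, in the highest decile, had -0.23 against a median of -0.33. When the ORF values of *rtt109Δ* were replaced by the WT values of the same rank, *NPL3* had a log2 ratio of 0.58 and *NAB3* 0.52. The call of *NAB3* was lost with a pseudocount of 0.5, at 0.29, and *NPL3* then had 0.39. Among cytosolic ribosomal protein genes, looked at after the values of *NPL3* had been seen, the median log2 ratio was 0.39 over 127 ORFs. Their median WT ratio was 0.829, below the 0.974 of all ORFs, and 26.0% of them lay in the lowest WT decile. A low ratio was thus not particular to *NPL3*.

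**Figure D2:**
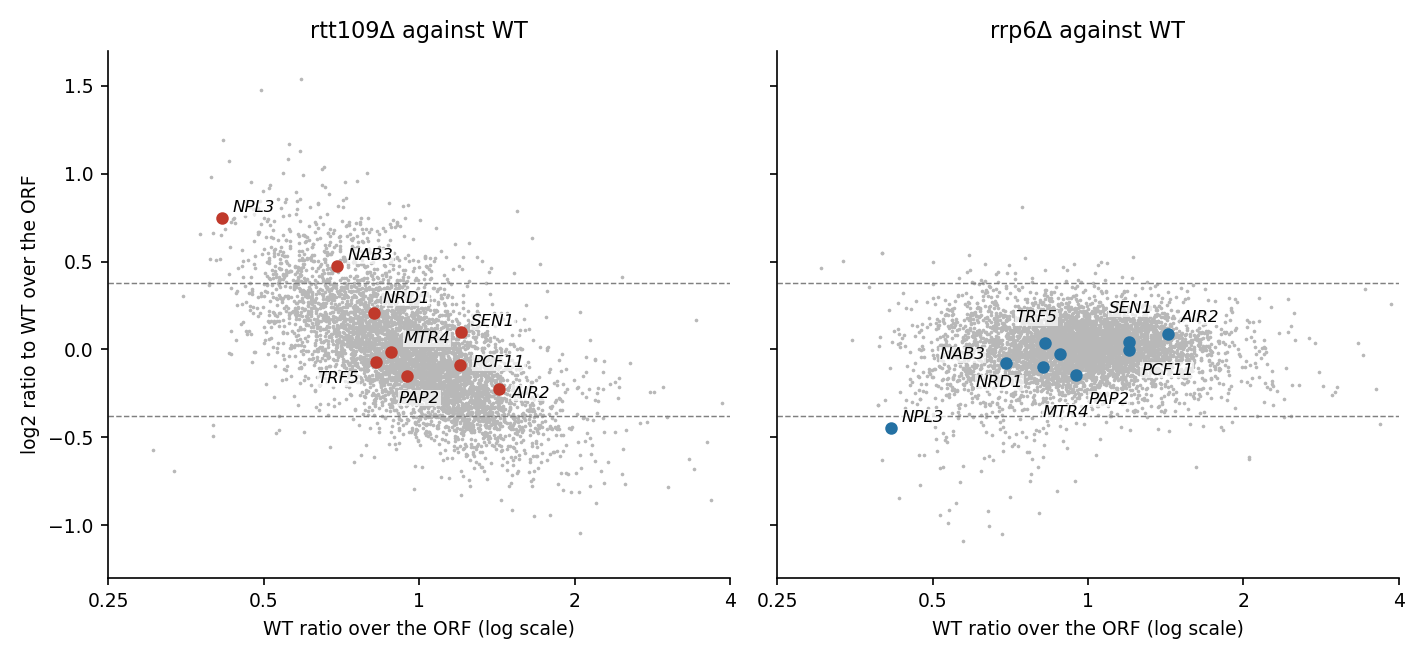
Log2 ratio of *rtt109Δ* to WT (left panel) and of *rrp6Δ* to WT (right panel) over the ORF against the WT ratio on a log axis, with all ORFs in grey and the 9 genes in colour. Dashed lines mark 1.3-fold, and 8 ORFs in the left panel and 6 in the right lie outside the axes. *NPL3* is above the upper line at 0.75 in the left panel and below the lower line at -0.45 in the right one.

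In *rrp6Δ*, *NPL3* was the one gene of the 9 past 1.3-fold over the ORF, and it was lower than in WT, whereas none was higher. Among all ORFs 1.82% were lower and 0.709% higher by this limit. The log2 ratio of *rrp6Δ* to WT over *NPL3* was -0.45, with 23 of 25 windows below WT, at percentile 1.26 of all ORFs. The call was lost with a pseudocount of 0.5, at -0.19, and when WT values were assigned by rank, at -0.06. Both ratios behind it are small, 0.305 in *rrp6Δ* and 0.416 in WT. The other 8 genes had log2 ratios between -0.14 (*PAP2*) and 0.09 (*AIR2*), and the median of the 9 was -0.03, beside 0.0081 over all ORFs. Both mutants were set against the same WT track, so their ratios share it. Set directly against each other, *rtt109Δ* was higher than *rrp6Δ* by more than 1.3-fold over *NPL3* (log2 ratio 1.20) and *NAB3* (0.55) and lower over none, beside 11.3% higher and 11.4% lower of all ORFs. *AIR2* had -0.32 and *NRD1* 0.30 in this comparison.

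Each ORF was then divided into 3 equal parts. In *rtt109Δ*, *NPL3* had log2 ratios to WT of 0.90, 0.86 and 0.49 in the first, middle and last part. *NAB3* had 0.40, 0.66 and 0.35 along the ORF. The limit was passed on the higher side by 2 of 9 genes in the first part (14.5% of all ORFs of at least 900 bp), 2 of 9 in the middle part (14.1%) and 1 of 9 in the last part (6.74%). On the lower side none of the 9 passed it in any part, beside 5.56%, 11.1% and 18.3% of all ORFs, first to last. Several genes were higher than WT at the start of the ORF and lower toward its end, namely *PAP2* (0.26, -0.32 and -0.31), *MTR4* (0.20, 0.06 and -0.26) and *PCF11* (0.12, -0.16 and -0.20). All ORFs had medians of 0.06, -0.02 and -0.13 along the same parts. These calls moved with the processing. With a pseudocount of 0.5, *NAB3* in its first part (0.24) and *NPL3* in its last part (0.26) fell inside the limit, whereas with the same mean window *NRD1* in its first part (0.45) and *NAB3* in its last part (0.44) passed it. *AIR2* differed most in its last part, with a ratio of 1.45 in *rtt109Δ*, 2.12 in *rrp6Δ* and 1.86 in WT.

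In *rrp6Δ* the log2 ratio to WT was higher in the last than in the first part of each gene except *NPL3* and *PAP2*. *NRD1* had log2 ratios of *rrp6Δ* to WT of -0.39, -0.19 and 0.20 from its first to its last part, and *SEN1* had -0.18, 0.01 and 0.29. *MTR4* had -0.25, -0.05 and 0.13. *NPL3* had -0.11, -0.52 and -0.68, the last of these being the largest difference among the 9. *NRD1* was the one gene of 9 below the limit in the first part (1.53% of all ORFs), with 12 of 12 windows below WT and a ratio of 0.605 in *rrp6Δ* against 0.795 in WT. *NPL3* was the one gene below it in the middle (1.74%) and last part (1.11%). None was above it in the first (1.18%), middle (1.66%) or last part (2.47%). With a pseudocount of 0.5 all of these calls were lost, at -0.23 for *NRD1* in the first part and -0.21 and -0.29 for *NPL3* in the middle and last part. The median of the 9 was -0.14 in the first part and 0.15 in the last, beside -0.02 and 0.08 over all ORFs.

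**Figure D3:**
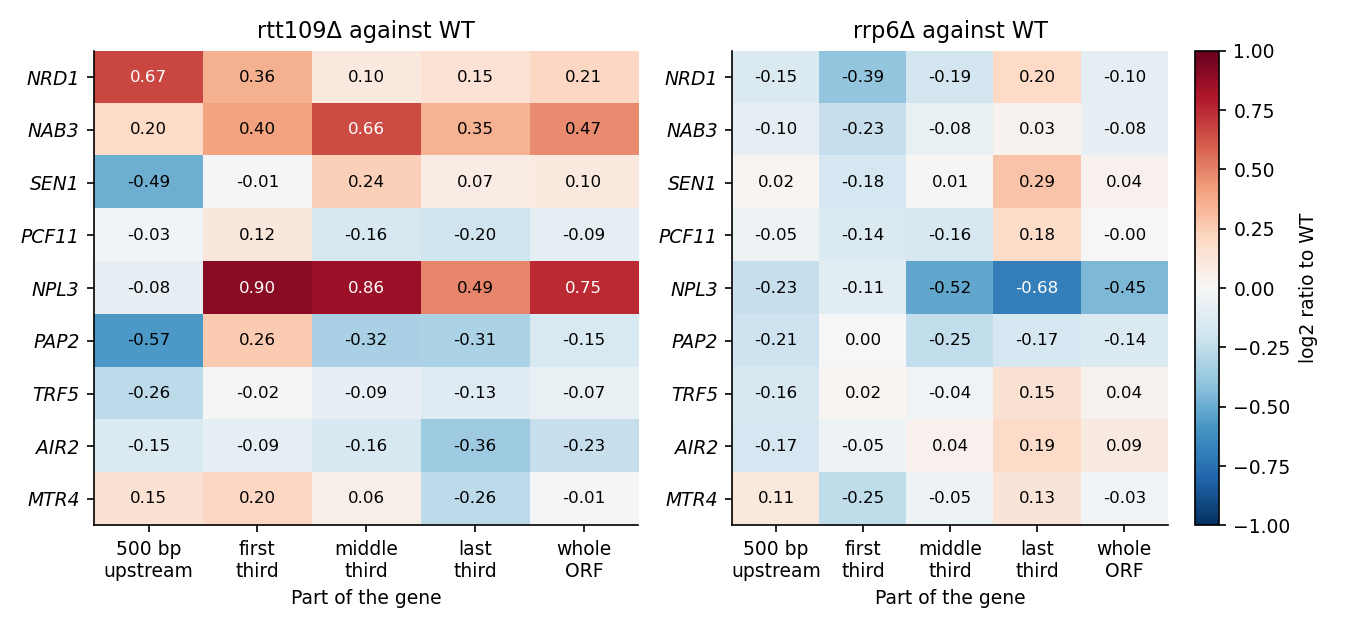
Log2 ratio to WT of *rtt109Δ* (left) and *rrp6Δ* (right) in the 500 bp before the start codon, in 3 equal parts of the ORF and in the whole ORF, for each of the 9 genes. Red is higher and blue lower than WT. In *rtt109Δ* the largest values are those of *NPL3* in the ORF (0.90 in its first part) and of *NRD1* upstream (0.67), and in *rrp6Δ* that of *NPL3* in its last part (-0.68).

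In the 500 bp before the start codon, *NRD1* was the one gene of the 9 with more RNAPII in *rtt109Δ* past the limit (6.63% of all ORFs), whereas *SEN1* and *PAP2* had less (16.0% of all ORFs). None of the 9 passed the limit in *rrp6Δ*, beside 0.363% higher and 4.43% lower of all ORFs. The median of the 9 was -0.08 in *rtt109Δ* and -0.15 in *rrp6Δ*, beside -0.07 and -0.08 over all ORFs.

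Upstream of *SEN1* the mean ratio was 1.96 in *rtt109Δ*, 2.79 in *rrp6Δ* and 2.75 in WT, a log2 ratio of -0.49 for *rtt109Δ* to WT and 0.02 for *rrp6Δ* to WT. All 10 windows were lower in *rtt109Δ* than in WT. Much of the level sat in narrow peaks, as the profiles of 4 genes show. A peak centred at -383.5 bp from the start codon reached 5.64 in *rtt109Δ*, 8.03 in *rrp6Δ* and 7.79 in WT, and another centred 16.5 bp into the ORF reached 5.75 in *rtt109Δ*, 9.70 in *rrp6Δ* and 8.67 in WT. The nearest upstream ORF is that of *CRN1*, 701 bp away on the same strand. Along the *SEN1* ORF as a whole 95 of the 134 windows were higher in *rtt109Δ* than in WT.

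Upstream of *PAP2* the ratio was 1.91 in *rtt109Δ*, 2.45 in *rrp6Δ* and 2.84 in WT, from 8 windows, of which 7 were lower in *rtt109Δ*. The log2 ratio to WT was -0.57 in *rtt109Δ* and -0.21 in *rrp6Δ*. A window centred at -374.5 bp from the start codon had 4.62 in *rtt109Δ*, 6.11 in *rrp6Δ* and 7.44 in WT, and one centred at -74.5 bp had 2.03 in *rtt109Δ*, 3.31 in *rrp6Δ* and 3.49 in WT. *MSN1*, on the same strand, ends 517 bp upstream. *SEN1* and *PAP2* had the highest upstream ratios of the 9 genes in WT, at percentiles 94.6 and 95.4 of all ORFs, whereas *NRD1* was at 25.8. Upstream regions were not set against others of the same WT level, so the part of that level in these differences was not tested.

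**Figure D4:**
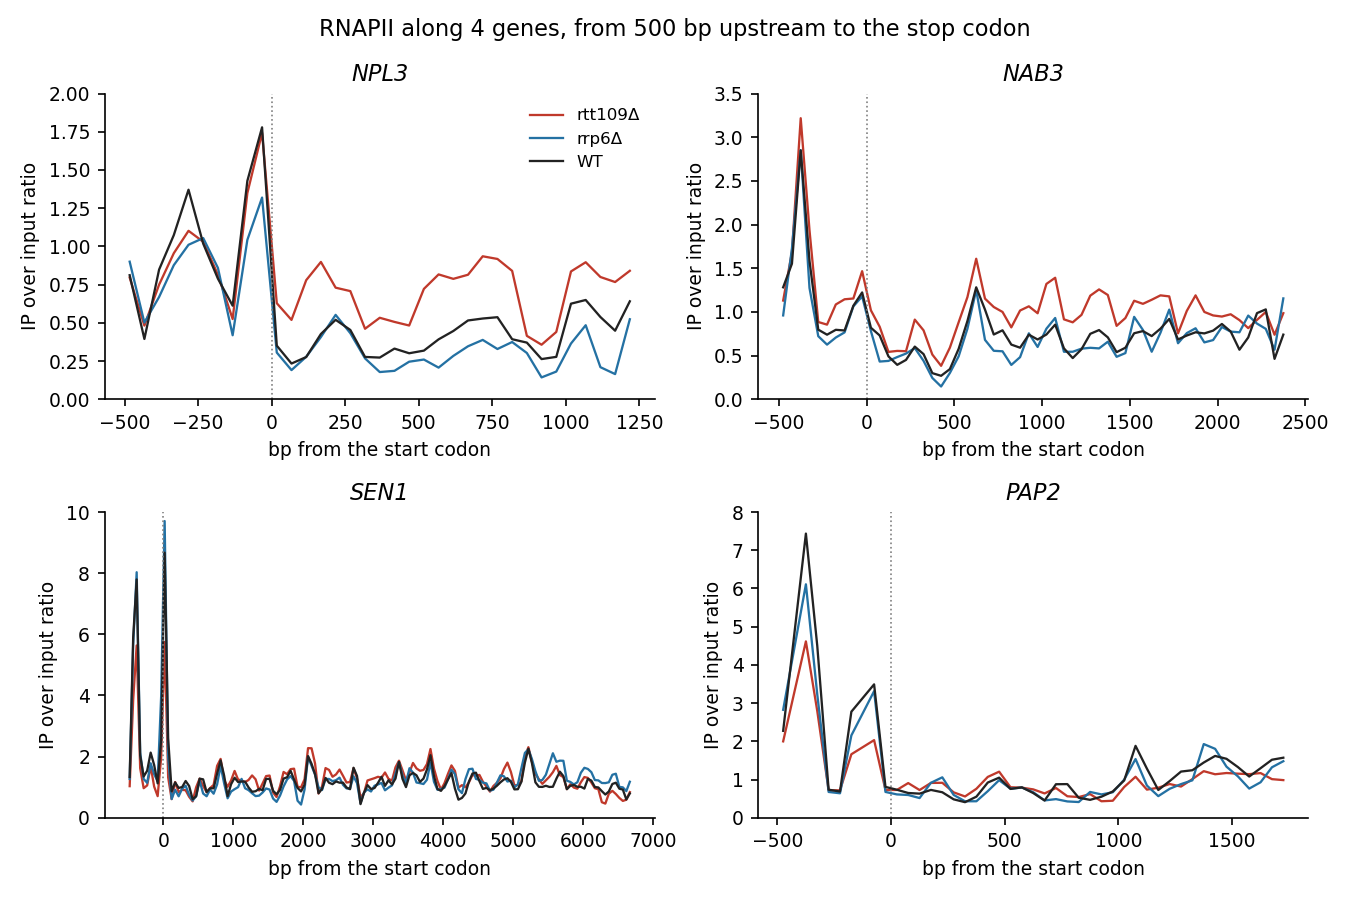
Ratio of IP over input per window (vertical axes, each panel with its own scale) against distance from the start codon in bp for *NPL3*, *NAB3*, *SEN1* and *PAP2* in *rtt109Δ* (red), *rrp6Δ* (blue) and WT (black). The *rtt109Δ* line lies above WT along the *NPL3* ORF in 25 of 25 windows, and below it at the peaks upstream of *SEN1* (5.64 against 7.79) and *PAP2* (4.62 against 7.44).

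The other upstream regions differed less. *NAB3* had 1.46 in *rtt109Δ*, 1.19 in *rrp6Δ* and 1.27 in WT, with 9 of 10 windows higher in *rtt109Δ* than in WT and a log2 ratio of 0.20. *TRF5* had 0.987 in *rtt109Δ*, 1.06 in *rrp6Δ* and 1.18 in WT, and all 10 of its windows were lower in *rtt109Δ*. *AIR2* had 1.22, 1.20 and 1.35 in *rtt109Δ*, *rrp6Δ* and WT. *MTR4* was higher in both mutants, with log2 ratios to WT of 0.15 in *rtt109Δ* and 0.11 in *rrp6Δ*, and *PCF11* had -0.03 and -0.05. *NPL3* had 0.955 in *rtt109Δ*, 0.865 in *rrp6Δ* and 1.01 in WT, so the difference of *rtt109Δ* from WT over its ORF (0.75) had no counterpart upstream (-0.08). The window centred at -32.5 bp from the *NPL3* start codon had 1.74 in *rtt109Δ*, 1.32 in *rrp6Δ* and 1.78 in WT. The one centred at 17.5 bp, inside the ORF, had 0.63 in *rtt109Δ*, 0.31 in *rrp6Δ* and 0.35 in WT. The upstream stretches of *TRF5*, *AIR2*, *MTR4* and *NPL3* reach into the neighbouring ORFs of *TOS6*, *DLD1*, *IRC8* and *CYM1*, which begin or end 464, 307, 266 and 312 bp away.

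The 5′ end of *NRD1*, where its own transcript is known to be terminated early, carried a peak of RNAPII in all 3 genotypes. From 200 bp before to 300 bp after the start codon the mean ratio was 1.62 in *rtt109Δ*, 0.988 in *rrp6Δ* and 1.13 in WT. Over the rest of the ORF it was 0.894 in *rtt109Δ*, 0.782 in *rrp6Δ* and 0.804 in WT. The log2 ratio of the 5′ end to the rest, called the 5′ index here, was 0.86 in *rtt109Δ*, 0.34 in *rrp6Δ* and 0.49 in WT. Among the 2168 ORFs of at least 1500 bp these values stood at percentile 94.5 in *rtt109Δ*, 66.8 in *rrp6Δ* and 73.5 in WT. The median index over those ORFs was 0.22 in *rtt109Δ*, 0.12 in *rrp6Δ* and 0.20 in WT. The index depended on how it was taken. With the 5′ end set from -100 to 400 bp it was 0.63 in *rtt109Δ*, -0.05 in *rrp6Δ* and 0.25 in WT. With the median over windows it was 0.60, 0.03 and 0.33 in the same order. With the first over the last part of the ORF it was negative in both *rrp6Δ* and WT and positive in *rtt109Δ*. The index of *NRD1* was 0.37 higher in *rtt109Δ* than in WT (percentile 89.4 of such differences), and that of *rrp6Δ* differed from WT by -0.15 (percentile 32.0).

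Along *NRD1* the highest windows were centred at -135.5 and -85.5 bp from the start codon. The first had 3.02 in *rtt109Δ*, 2.02 in *rrp6Δ* and 2.15 in WT, and the second had 3.47 in *rtt109Δ*, 1.90 in *rrp6Δ* and 2.04 in WT. All 10 windows of the 5′ end were higher in *rtt109Δ* than in WT, and 9 of the 10 were lower in *rrp6Δ*. A second peak in *rtt109Δ* was centred at -285.5 bp, with 2.02 in *rtt109Δ*, 0.80 in *rrp6Δ* and 0.96 in WT. Over the whole 500 bp upstream the ratio was 1.71 in *rtt109Δ*, 0.968 in *rrp6Δ* and 1.07 in WT, a log2 ratio of 0.67 for *rtt109Δ* to WT that stood at percentile 99.1 of all ORFs. *RAD50* is transcribed away from *NRD1*, and its ORF starts 1094 bp off, so none of these windows was centred in another ORF. RNAPII of the 2 directions cannot be told apart in these data. In the last part of the *NRD1* ORF the order differed, with a mean ratio of 0.930 in *rtt109Δ*, 0.964 in *rrp6Δ* and 0.840 in WT.

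**Figure D5:**
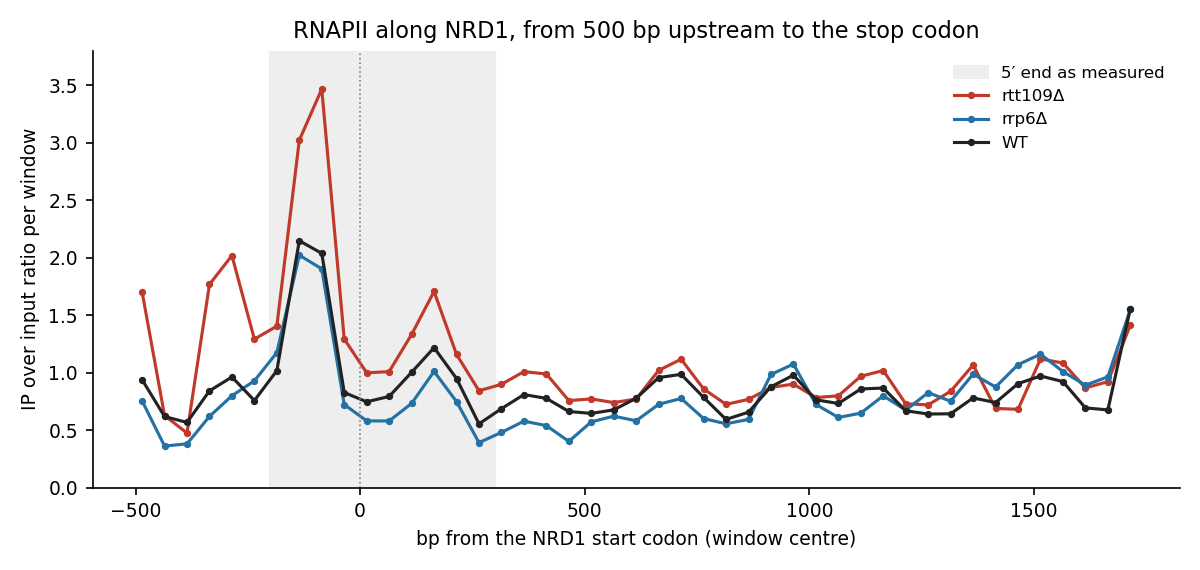
Ratio of IP over input per window (vertical axis) against distance from the *NRD1* start codon in bp (horizontal axis) in *rtt109Δ* (red), *rrp6Δ* (blue) and WT (black), with the stretch measured as the 5′ end shaded. The peak window before the start codon has 3.47 in *rtt109Δ*, 1.90 in *rrp6Δ* and 2.04 in WT, and the lines cross over the last part of the ORF.

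The other genes had different 5′ indices. *SEN1* had 0.34 in *rtt109Δ*, 0.98 in *rrp6Δ* and 1.00 in WT, so that it was at percentile 94.3 in WT and 62.8 in *rtt109Δ*, and its difference of *rtt109Δ* from WT (-0.66) was at percentile 1.25. *NRD1* and *SEN1* thus differed from WT in opposite directions at their 5′ ends in *rtt109Δ*. In WT the mean ratio of the 5′ end was at percentile 96.6 of all ORFs for *SEN1* and 47.3 for *NRD1*. Unlike whole ORFs, 5′ ends were not set against others of the same WT level. The part of the narrower *rtt109Δ* spread in these differences was therefore not tested. *TRF5* had 0.51, 0.44 and 0.58, *MTR4* had 0.53, 0.30 and 0.32, and *PAP2* had 0.25, 0.39 and 0.27, in *rtt109Δ*, *rrp6Δ* and WT. *NAB3* had -0.11 in *rtt109Δ*, 0.05 in *rrp6Δ* and 0.05 in WT. *PCF11* had the reverse slope, with less RNAPII at its 5′ end than in the rest of the ORF, at -0.13 in *rtt109Δ*, -0.33 in *rrp6Δ* and -0.16 in WT. The WT profile of *NRD1* was closest to those of *SDD4*, *FET5* and *KRS1*. Pearson's r was 0.90, 0.89 and 0.88 over 40 positions interpolated from the windows, beside a median r of 0.257 over 2123 ORFs. This r describes likeness of shape in 1 track. Upstream of these 3 genes the log2 ratios of *rtt109Δ* to WT were -0.53, -0.63 and 0.18, whereas *NRD1* had 0.67.

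Genes of related function were taken as lists. Of 22 genes for cleavage, polyadenylation and torpedo termination at mRNA 3′ ends, 1 was higher in *rtt109Δ* than in WT past 1.3-fold and 2 were lower, with a median log2 ratio of -0.13, and none passed the limit in *rrp6Δ* (median 0.00074). Over all ORFs the shares were 8.75% higher and 9.57% lower in *rtt109Δ* (median -0.05) and 0.709% higher and 1.82% lower in *rrp6Δ* (median 0.0081), and these apply to each list here. The counts for 3′ end genes were near these shares. No list was recomputed under the alternative settings, so how far its calls depend on scaling was not tested. The lower genes were *RTT103* (-0.49), whose protein binds the CTD and brings the nuclease Rat1, and *CLP1* (-0.38), a subunit of the same cleavage factor as *PCF11*. On the log2 scale the limit is 0.379, so *CLP1*, at -0.380, lay close to it. The higher gene was *PTA1* (0.72), a subunit of the cleavage and polyadenylation factor. In WT the ratio was 0.493 for *PTA1*, 1.34 for *RTT103* and 1.08 for *CLP1*. *PTA1* lies on chromosome I, whose 94 ORFs had a median of 0.30, and the part of this in its value was not tested. Of 15 partners (the cap-binding complex, exosome cofactors, adaptors of Mtr4, the nuclease Rnt1, enzymes that act on the CTD, and Nab2 and Npl3 with their relatives, modifiers and carriers), 1 was higher and 2 were lower in *rtt109Δ*, with a median of -0.06, and none passed in *rrp6Δ* (median -0.07), where few of all ORFs did. *NAB2*, for a nuclear poly(A)-binding protein, had 0.43, whereas *MPP6*, for an exosome cofactor, had -0.45 and *CTK1*, for a CTD kinase, had -0.44. Their WT ratios were 0.649 for *NAB2*, 1.86 for *MPP6* and 1.22 for *CTK1*.

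Of 7 genes known for attenuation of their own transcripts, *PCF11* among them, 2 were higher in *rtt109Δ* than in WT and none was lower, with medians of 0.32 in *rtt109Δ* and 0.14 in *rrp6Δ*, beside 8.75% higher and 9.57% lower of all ORFs in *rtt109Δ*. The median WT ratio of this list was 0.814, below the 0.974 of all ORFs. Ratios of *rtt109Δ* to WT were higher at low WT levels, and no list was set against ORFs of the same level. The part of the WT level in these values was therefore not tested. *URA2*, of pyrimidine synthesis, had a log2 ratio of 0.64 in *rtt109Δ* and *URA8*, for a CTP synthase, had 0.39. *URA8* (0.388) and *HRP1* (0.373) lay close to the limit of 0.379, on either side of it. In *rrp6Δ*, *IMD2*, for an enzyme of guanine nucleotide synthesis, was higher at 0.40, beside 0.709% of all ORFs, although its near-identical paralogs make its ratio uncertain. The 5′ indices of *HRP1*, which is also among the 3′ end genes, were 0.95 in *rtt109Δ*, 0.78 in *rrp6Δ* and 1.08 in WT, and those of *IMD2* were 0.68 in *rtt109Δ*, 0.92 in *rrp6Δ* and 1.23 in WT. *URA8* had 0.94 in *rtt109Δ*, 1.02 in *rrp6Δ* and 0.99 in WT. Within this list the index was lower in *rtt109Δ* than in WT for each gene except *PCF11*, whereas for *NRD1* it was higher. Over the 2168 ORFs of at least 1500 bp the median difference was 0.05, with quartiles of -0.14 and 0.22. The WT indices of *HRP1*, *IMD2*, *URA8* and *FKS2* were at percentiles 95.4, 97.4, 94.0 and 89.6. How far the narrower spread of the *rtt109Δ* track lowers such high indices was not tested.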

How the data were processed

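Cells were crosslinked with formaldehyde and chromatin was cut with micrococcal nuclease. The authors deposited 1 ratio of IP to input per window and genotype, in which the libraries were already combined; the study describes its browser views as normalised to total library reads, and whether this holds for the deposited ratios is not given in the sources used here. Submitters' processing notes name FastQC, Bowtie2, SAMtools, deepTools and bedtools and the build sacCer3. The labels name antibody 8WG16, the methods 8WG18. ORF positions came from the RefSeq R64 annotation of 6002 ORFs, of which 214 lie on chromosome IX, not analysed here, and strand came from systematic names. A region's value was the mean of windows centred in it, with no pseudocount or filter. Parts were taken for 3798 ORFs of at least 900 bp. Percentiles rank a gene among all ORFs of 1 track or comparison. A gene was called past 1.3-fold. The members, lists and the rule for named genes (all 9 members, the 3 profiles most like *NRD1*, and list genes past the limit, at most 4 per list and mutant) were chosen with earlier results of these data known. No depth, counting error or test was possible, and 1 track per genotype limits the precision. The tracks do not separate strands. Scripts were tested on simulated data. The alternatives were other scalings, the median over windows, windows wholly inside, a pseudocount of 0.5, subtraction of the 10th percentile, a limit of 1.5-fold, 250 bp upstream, windows outside neighbouring ORFs, other 5′ ends and, added after the data were seen, WT values by rank. Work was done in Python 3.11.15 with matplotlib 3.10.9, scipy 1.17.1, pandas 2.3.3 and numpy 2.4.6.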

Additional observations from a re-analysis of the deposited data

How the results depend on the processing

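Recomputed values of the 9 genes, 660 with counts included, were set against those reported. A count was kept if within 1.5 times, and another value if within 50% of the width of the order-statistic interval of its windows or genes. By this rule 577 stayed, 82 moved and 1 past the limit was reversed in sign. Of 628 log2 ratios and indices among them, 55 changed sign, of which 1 had been past the limit and the rest were smaller values. The 1 past the limit was the 5′ index of *NRD1* in WT, taken as the first over the last part of the ORF. With a pseudocount of 0.5, 1 of the 9 genes was past the limit on the higher side in *rtt109Δ*, beside 2.68% of all ORFs. On the lower side in *rrp6Δ* it was 0 of the 9, beside 0.329%. The limit of 1.5-fold gave the same counts, 1 and 0, beside 2.99% and 0.623% of all ORFs. WT values by rank, chosen after seeing the data, left 0 lower in *rrp6Δ*, beside 1.25% of all ORFs. Subtracting the 10th percentile of each track (0.6, 0.499 and 0.539 in *rtt109Δ*, *rrp6Δ* and WT) leaves out *NPL3*, which lies below it in WT, and for the other 8 genes the *rtt109Δ* median was -0.32 (all ORFs -0.37), with 3 genes lower and 1 higher beside 49.7% and 15.5% of all ORFs, and the *rrp6Δ* median was 0.087 (all ORFs 0.15), with 0 lower beside 6.30%. With the first over the last part of the ORF as the 5′ index, *NRD1* had 0.13 in *rtt109Δ*, -0.67 in *rrp6Δ* and -0.080 in WT. The median of the 9 ORFs in *rtt109Δ* was 0.08 when tracks were divided by their mean window. Upstream of *NRD1* *rtt109Δ* over WT gave log2 ratios of 0.49 to 1.05 under 8 alternatives, upstream of *SEN1* -0.71 to -0.40 and upstream of *PAP2* -0.81 to -0.46, all past the limit. No paired analysis was possible because the replicates of a genotype are merged in 1 track, which also means that none of them can be left out.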
